A study of Mus musculus with 8 samples.

Results

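Of 7 long noncoding RNAs that are known to stay largely in the cell nucleus and were listed by name, Malat1, Neat1, Meg3, Kcnq1ot1, Snhg11, Miat and Rian, 6 were measured among the 31053 genes of the deposited tables. Rian was not analysed here. The RNAs were chosen by name and not by a measured value, but with earlier results of these data known. Each was read as its percent of all unique molecular identifiers (UMIs, tags that mark single captured RNA molecules). The percent was taken in a cell or in the summed cells of a population. The data came from 8-week-old male Nestin-GFP +/- mice, which carry GFP under the promoter of nestin, a cytoskeletal protein that neural stem cells make. Control mice had a sham craniotomy, and TBI mice had a controlled cortical impact on the left side, a mechanical model of traumatic brain injury. On day 15 after surgery the dentate gyri of the operated side were dissociated, and live GFP-positive cells were sorted, so the sort set which cells entered and in which numbers. Animals of a condition were pooled before sequencing, which left 2 libraries, 1 for each condition. No comparison between Control and TBI therefore has a replicate check, and every interval given here covers counting error only.

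Malat1 is an abundant RNA of nuclear speckles, the bodies that store splicing factors, and Neat1 is the scaffold around which paraspeckles assemble. Meg3 and Kcnq1ot1 are transcribed from imprinted domains, Meg3 from the maternal copy and Kcnq1ot1 from the paternal copy, where Kcnq1ot1 silences neighbouring genes. Miat marks a nuclear domain of its own in neurons, and Snhg11 is a neuronal host transcript of small nucleolar RNAs. RNA of this kind lies in the nucleus, whereas mitochondrial messages lie inside mitochondria and ribosomal protein messages in the cytoplasm around them. The nuclear RNAs are often read beside the mitochondrial share and the depth of a cell.

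The libraries were made with a kit that starts cDNA at the poly(A) end of an RNA, and not all of these RNAs carry a usual poly(A) tail, so A-rich stretches are shown for 3 of them as they stand in the mouse genome GRCm38 with the GENCODE vM21 annotation, 5′ to 3′. Capitals mark the longest A-run of Malat1 and of Kcnq1ot1, and for Neat1 the A-runs at the very end of the transcript. Malat1 (chr19:5795690-5802672, minus strand, 1 exon) is known to end in an A-rich tract that is written in the genome and to be cut there from a small tRNA-like RNA. Its 1 run of 8 or more A bases lay at bases 6674 to 6685 of the 6983-base transcript, 298 bases before its annotated end, in the exonic stretch chr19:5795964-5796023. Neat1 (chr19:5824708-5845478, minus strand, 1 exon, 20771 bases) lies 22035 bases from Malat1, and the last 60 bases of its long form are shown, chr19:5824708-5824767.
Malat1: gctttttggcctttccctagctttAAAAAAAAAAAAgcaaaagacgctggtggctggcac
Neat1: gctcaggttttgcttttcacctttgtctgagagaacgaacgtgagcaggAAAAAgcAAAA
Kcnq1ot1: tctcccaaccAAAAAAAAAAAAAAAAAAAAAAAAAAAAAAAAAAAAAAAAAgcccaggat
Meg3 (chr12:109541001-109571726, plus strand) has a longest spliced transcript of 14548 bases in 5 exons. The Kcnq1ot1 stretch, chr7:143226936-143226995 on the minus strand, holds a run of 41 A inside the single exon of 93092 bases, which lies antisense to Kcnq1. Kcnq1ot1 had 30 runs of 8 or more A, Meg3 7, Snhg11 3, and Neat1 and Miat 0. Snhg11 (chr2:158375638-158386145, plus strand, annotated as protein coding) had a longest run of 8, Neat1 of 7, at bases 9539 to 9545 and so outside the stretch shown, and Miat (chr5:112213228-112229395, minus strand) of 4. A run of 10 or more A was held by 1532 of 4190 longest transcripts of at least 5000 bases (36.6%), so such a run did not set these RNAs apart. Since length and A-runs differ this much, levels were not compared between RNAs. Small RNA genes are annotated inside Malat1, Neat1, Meg3, Snhg11 and Miat on the same strand, and reads that both share could not be assigned with certainty.

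After filtering, 3049 Control cells with a median of 6928 UMIs and 5036 TBI cells with a median of 5663 UMIs were analysed, and 3 cell barcodes occurred in both tables. The median share of mitochondrial UMIs was 7.19% in Control and 6.32% in TBI. Cells were clustered without the 6 RNAs, and 39 of 41 clusters took the name of the population whose fixed markers they expressed most, among them Mki67 and Top2a for NSC, Ccnd2 and Hes5 for RG-like, Neurod1 and Dcx for neuron-like and Aqp4 and Slc1a3 for astrocyte-like cells. The 2 unnamed clusters, 100 Control and 96 TBI cells with a median mitochondrial share of 41.4% and 41.7%, were left out of the populations. The 9 populations ran from 27 oligodendrocyte precursor cells (OPC) to 774 astrocyte-like cells in Control, and from 55 OPC to 1191 neuron-like cells in TBI. Median depth ran from 2363.5 UMIs in TBI astrocyte-like cells to 17487 in Control NSC, the neural stem and progenitor cells with markers of division, and was lower in TBI than in Control in 7 of the 9 populations, all but OPC and microglia.

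Malat1 took 5.72% of all UMIs in Control and 5.55% in TBI. It was highest in astrocyte-like cells, mural cells and oligodendrocytes, and lowest in the RG-like and NSC populations. In astrocyte-like cells it took 12.0% of UMIs in both libraries, with 774 Control and 728 TBI cells. In mural cells, which surround blood vessels, it took 9.21% in Control and 9.52% in TBI, and in oligodendrocytes, the myelinating cells, 7.19% and 7.09%. OPC stood at 6.96% and 5.59%, endothelial cells of the vessel lining at 4.63% and 4.57%, neuron-like cells at 3.79% in both, and microglia, the resident immune cells, at 2.51% and 2.38%. NSC had 1.98% and 1.78%, and RG-like cells, the radial glia-like stem cells, 1.77% and 1.76%. The order was the same in both libraries, and the intervals of neighbours in it were apart except for NSC and RG-like cells in TBI. By the mean over cells, in which each cell counts alike, mural cells were highest in TBI. In single cells the Malat1 share reached 38.7% in Control and 44.1% in TBI.

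**Figure D1:**
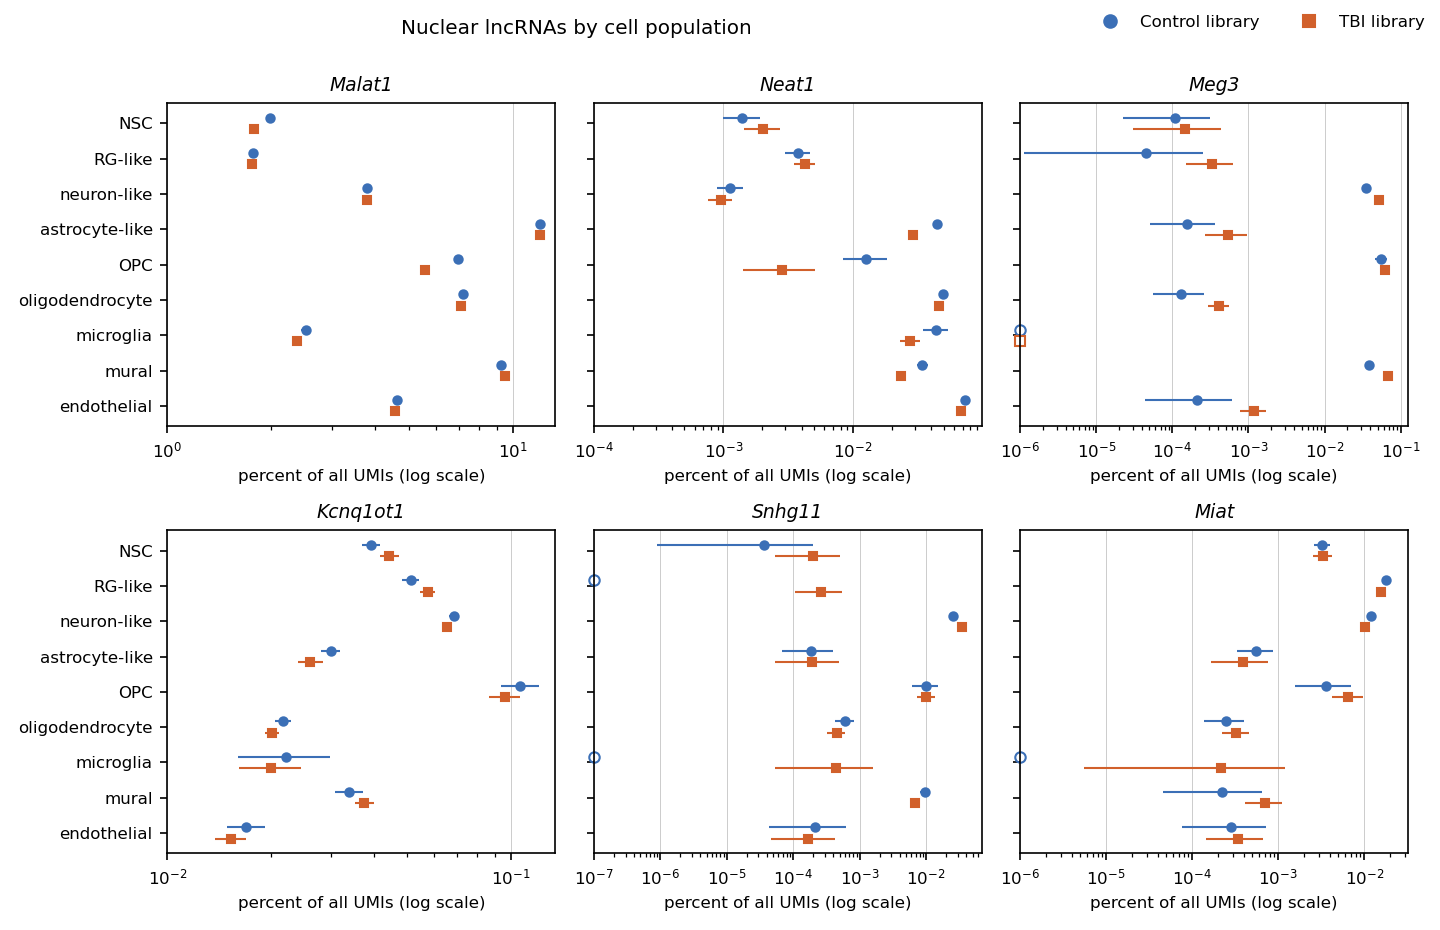
Percent of all UMIs (log axis) of each of the 6 RNAs in the summed cells of 9 populations, Control as blue circles and TBI as orange squares, with 95% Poisson intervals and open markers at the left edge for 0 UMIs. Malat1 runs from 12.0% in astrocyte-like cells to 1.77% and 1.76% in RG-like cells, and the other RNAs peak elsewhere.

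From early neuroblasts to immature granule neurons the Malat1 share was higher at each later stage. Early neuroblasts, which express the intermediate progenitor factor Eomes, had 2.10% in Control and 2.20% in TBI. Late neuroblasts, marked by Calb2 and the microtubule protein Dcx, had 3.91% and 4.04%, and immature granule neurons had 5.58% and 5.05%. Neurons that express Reln, the secreted guide of layer formation, also carried Lhx1, Trp73 and Ndnf, markers of other neurons than granule cells, and are not a stage of this series. They had 7.08% in 29 Control cells and 8.15% in 77 TBI cells. Among astrocyte-like cells, the sub-population named astrocytes from markers such as Aqp4 and Slc1a2 had 16% and 17%. Stem-like astroglia with Vim and Hes5 had 10.4% and 9.10%. The 2 astrocyte-like sub-clusters that took no sub-population name stood far below both, at 0.349% and 0.477% in the first, of 152 Control and 168 TBI cells, and at 0.153% and 0.40% in the other, of 98 and 147 cells. The first stayed unnamed for a low UMI count with no marker among its leading genes. Its mean standardized level of the astrocyte markers, 0.369, was above the -0.0623 of a named astrocyte sub-cluster of 316 cells. The other had under 3 markers detected.

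**Figure D2:**
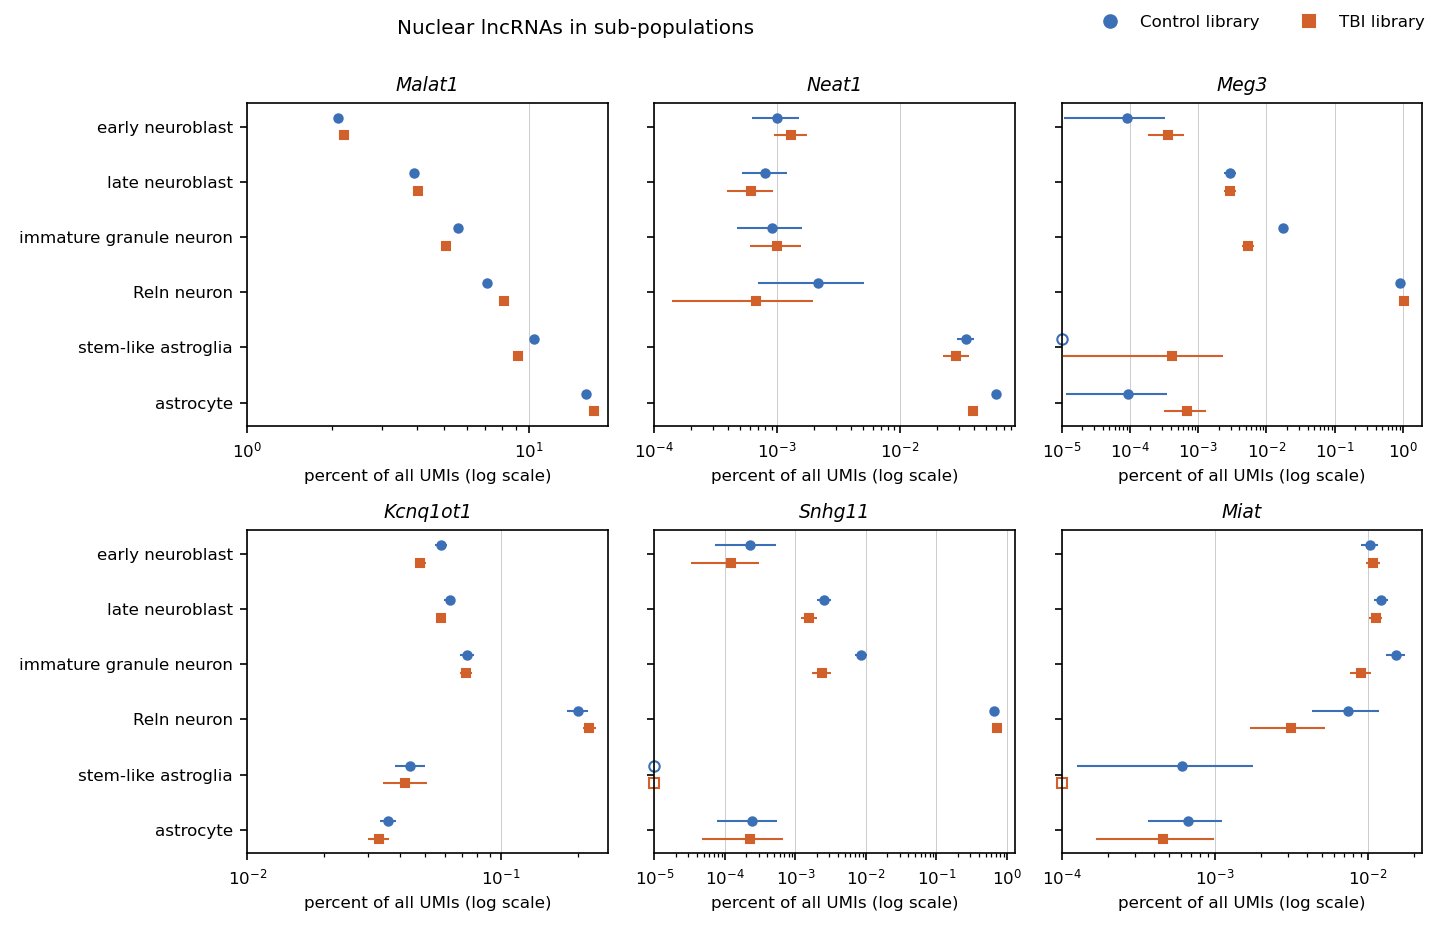
Percent of all UMIs (log axis) of the 6 RNAs in 4 sub-populations of neuron-like and 2 of astrocyte-like cells, with colours, markers and 95% Poisson intervals as for the populations. Malat1 is at 2.10% and 2.20% in early neuroblasts and at 7.08% and 8.15% in Reln neurons, and Meg3 and Snhg11 are each highest in Reln neurons.

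Malat1 divided the cells of several populations into cells with a high and cells with a very low share. A limit of 0.5% of UMIs was set after the values were seen, in the range that was sparsely filled in astrocyte-like cells. It describes a range and not a cell type. Below it lay 377 of 3049 Control cells (12.4%, exact binomial interval 11.2 to 13.6) and 481 of 5036 TBI cells (9.55%, 8.75 to 10.4), of which 120 and 168 had no Malat1 UMI. Between 0.25% and 1% of UMIs lay 102 Control and 202 TBI cells. Of NSC, 20 of 157 Control and 39 of 167 TBI cells lay there, and of RG-like cells 25 of 155 and 47 of 234. In these populations the limit cuts the lower end of the main set. Other cells below the limit, in NSC most of them, lay apart from that set at far lower shares. Astrocyte-like cells held most of the cells below the limit, 251 of 774 in Control (32.4%) and 304 of 728 in TBI (41.8%), with 17 and 42 cells near it. Microglia were below it in 15 of 38 Control cells (39.5%) and 22 of 89 TBI cells (24.7%), and endothelial cells in 31 (10.6%) and 66 (10.1%). Neuron-like cells were below it in 37 of 654 (5.66%) and 43 of 1191 (3.61%), mural cells in 7 (2.49%) and 9 (1.27%), and oligodendrocytes in 1 of 571 and 1 of 1115. OPC were below it in 6 of 27 (22.2%) and 7 of 55 (12.7%), and NSC in 13 of 157 (8.28%) and 14 of 167 (8.38%). RG-like cells were below it in 10 of 155 (6.45%) and 12 of 234 (5.13%).

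**Figure D3:**
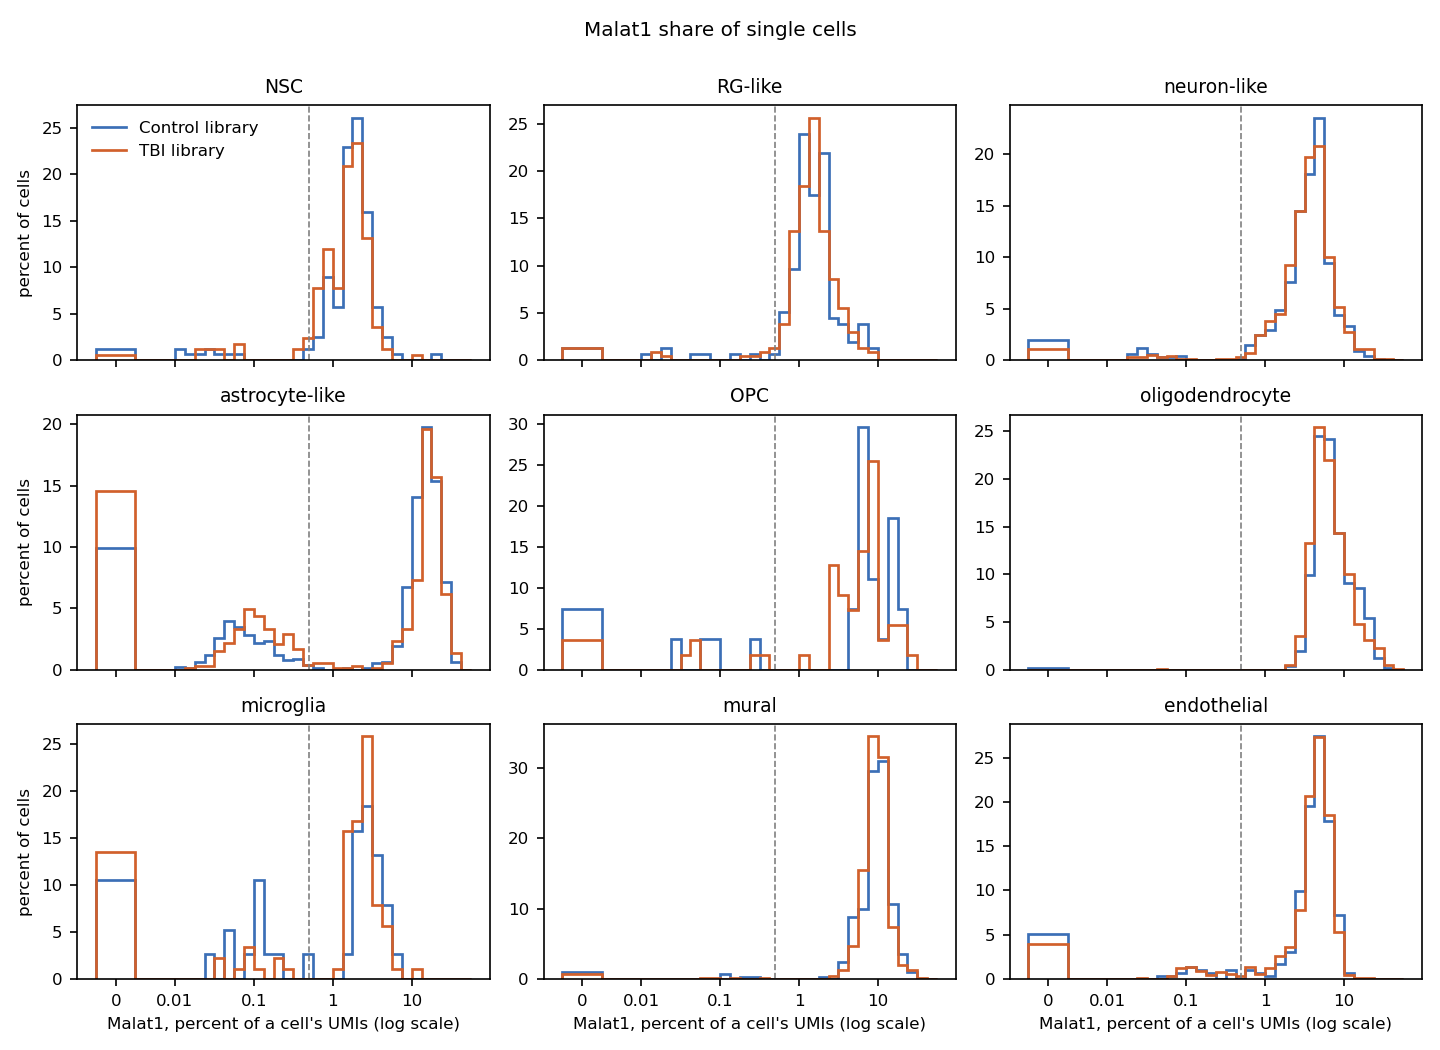
Percent of the cells of each population and library (vertical axis) by the Malat1 percent of a cell's UMIs (log axis, first bar for cells with 0 Malat1 UMIs), with the 0.5% limit as a dashed line. Astrocyte-like cells form a low and a high set, with 32.4% of Control and 41.8% of TBI cells below the line, while oligodendrocytes lie above it but for 1 cell in each library.

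Cells below the limit were shallower and held more mitochondrial UMIs. In astrocyte-like cells the median depth was 2153 UMIs below the limit and 4569 above it in Control, and 1360.5 and 3527.5 in TBI. Their median mitochondrial share was 13.5% below and 8.35% above in Control, and 12.2% and 7.30% in TBI. In neuron-like cells the median depth below and above was 3771 and 11072 UMIs in Control and 3438 and 8285 in TBI, and the mitochondrial share was 14.0% and 5.94%, and 14.1% and 6.05%. The part of depth or mitochondrial share in the low Malat1 values was not tested.

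Kcnq1ot1 and Neat1 were also low in the astrocyte-like cells below the limit. Kcnq1ot1 had 2 UMIs in the 251 Control and 4 UMIs in the 304 TBI astrocyte-like cells below the limit, a share 0.0069 and 0.0199 times that above it. Neat1 had 12 and 9 UMIs there, 0.0279 and 0.0404 times its share above the limit. In neuron-like cells below the limit Kcnq1ot1 had 1 and 2 UMIs, while Neat1 had 2 and 0, too few to compare. In NSC and RG-like cells Kcnq1ot1 was less low. Its share below the limit was 0.326 and 0.296 times that above it in NSC, and 0.517 and 0.170 times in RG-like cells. Below the limit it had 3 UMIs in TBI OPC (0.0981 times) and 1 in Control endothelial cells (0.153 times). It had 0 there in Control OPC, TBI endothelial cells, and microglia and mural cells of both libraries. Among the 41 clusters, astrocyte-like clusters 9 and 12 had 0.104% and 0.395% Malat1 with 282 of 292 and 252 of 267 cells below the limit, whereas astrocyte-like cluster 5, also shallow at a median of 2597 UMIs and with a mitochondrial share of 12.8%, had 20.7%. Oligodendrocyte cluster 14 had 17.9% Malat1 at a median of 2104 UMIs and a mitochondrial share of 36.8%. These 4 clusters were picked after their values were seen, and whether depth or mitochondrial share plays a part was not tested. In astrocyte-like cells above the limit the Malat1 share was 15.0% in 523 Control cells and 15.8% in 424 TBI cells.

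Neat1 was highest in vessel lining cells and in glia, and near its lowest in the neurogenic lineage. Endothelial cells had 0.0734% of UMIs in Control and 0.0681% in TBI, and oligodendrocytes had 0.0490% and 0.0463%. Astrocyte-like cells had 0.0446% and 0.0291%, microglia 0.0432% and 0.0276%, and mural cells 0.0342% and 0.0233%. NSC, at 0.00140% and 0.00202%, and neuron-like cells, at 0.00112% and 0.000952%, had the lowest shares, with RG-like cells at 0.00376% and 0.00424%. OPC had 0.0126% in Control, from 28 UMIs, and 0.00285% in TBI, from 11 UMIs. Within oligodendrocytes it varied by cluster, from 0.0215% and 0.0191% in cluster 17, which expressed Mal and Lpar1, to 0.154% and 0.138% in cluster 14. Within mural cells, the smooth muscle cluster with Acta2 and Tagln had 0.0594% in both libraries, and the largest mural cluster had 0.0141% and 0.0112%. By the mean over cells, oligodendrocytes and not endothelial cells were highest for Neat1 in both libraries.

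Kcnq1ot1 had its highest share in OPC, 0.107% in Control and 0.0961% in TBI, and then in neuron-like cells, 0.0683% and 0.0651%. RG-like cells had 0.0512% and 0.0574%, and NSC 0.0392% and 0.0444%. The other populations lay between 0.0153% in TBI endothelial cells and 0.0375% in TBI mural cells. Among the neuron-like cells its share was 0.0581% and 0.0480% in early neuroblasts, 0.0626% and 0.0579% in late neuroblasts, 0.0736% and 0.0729% in immature granule neurons, and 0.200% and 0.223% in Reln neurons.

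Meg3 and Snhg11 were concentrated in a small set of neurons. In Reln neurons Meg3 took 0.898% of UMIs in Control and 1.03% in TBI, with 2076 and 4627 UMIs, and at least 1 Meg3 UMI was seen in 29 of 29 and 77 of 77 cells at a median depth of 8013 and 5941. For background, 0.646% of Control and 1.37% of TBI astrocyte-like cells had a Meg3 UMI, at median depths of 3518.5 and 2363.5. Reln neurons held 86.5% of the Meg3 UMIs of all neuron-like cells in Control and 95.4% in TBI. Snhg11 took 0.667% and 0.716% of UMIs in them, was seen in 28 of 29 and 77 of 77 cells, and had 88.9% and 96.7% of its neuron-like UMIs there. In the other neuron-like cells Meg3 was seen in 17 of 625 Control and 46 of 1114 TBI cells, and the 10 cells with the most held 97.8% and 78.1% of its UMIs. Late neuroblasts had 0.00294% and 0.00293% Meg3, and early neuroblasts 2 and 12 UMIs in all.

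Outside the neurons Meg3 was found in OPC, at 0.0547% in Control and 0.0617% in TBI, and in mural cells, at 0.0383% and 0.0686%. In neuron-like cells as a whole it stood at 0.0350% and 0.0513%, so that OPC were highest in Control and mural cells in TBI. Microglia had 0 Meg3 UMIs in both libraries, which allows a share of up to 0.00154% in Control and 0.000652% in TBI. NSC had 3 and 3 Meg3 UMIs, and RG-like cells 1 and 9. Snhg11 in mural cells came almost wholly from 1 small cluster that expressed the matrix genes Spp1, Dcn and Lum. Only 3 mural markers were detected in it, and none was among its leading genes. Its mean standardized marker level was 0.817 for mural cells and 0.671 for OPC, so it took the mural name by a narrow margin. This cluster of 12 Control and 19 TBI cells held 128 of 130 Control and 159 of 165 TBI mural UMIs of Snhg11, and had 0 Meg3 UMIs.

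Miat was highest in RG-like cells, at 0.0179% in Control and 0.0158% in TBI, followed by neuron-like cells at 0.0120% and 0.0102%. NSC had 0.00323% and 0.00330%. Among neuron-like cells, Miat was at 0.0103% and 0.0107% in early neuroblasts, 0.0122% and 0.0112% in late neuroblasts, 0.0151% and 0.00897% in immature granule neurons, and 0.00735% and 0.00313% in Reln neurons, where Meg3 and Snhg11 were highest. Of the 6 RNAs, 5 had the same highest population in both libraries, all but Meg3.

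The comparison of TBI with Control asks which RNAs stood at another level 15 days after injury within a population. With at least 100 UMIs in both libraries together and 10 in each, 33 pairs of an RNA and a population could be compared, and 3 differed by more than 1.5-fold. Of all genes with the same counts, the share past 1.5-fold was 3.08% in NSC, 2.48% in RG-like, 1.8% in neuron-like, 2.58% in astrocyte-like, 29.7% in OPC, 2.04% in oligodendrocytes, 9.68% in microglia, 11.5% in mural and 2.44% in endothelial cells. The median log2 ratio of all genes was 0.17 in OPC, 0.10 in mural cells and between -0.01 and 0.03 elsewhere. Malat1 differed by less than 1.5-fold in 9 of 9 populations, with log2 ratios of TBI to Control from -0.32 in OPC to 0.05 in mural cells. Kcnq1ot1 also stayed inside the limit in 9 of 9, from -0.20 to 0.18. Within single clusters, looked at after the values were seen, Malat1 could differ more and in both directions. Its log2 ratio ran from -0.87 in astrocyte-like cluster 36, of 29 Control and 15 TBI cells, to 4.82 in neuron-like cluster 34, of 32 and 48 cells. In cluster 34 the share was 0.0365% and 1.03%. Endothelial cluster 27, of 29 and 85 cells, was at 2.09 and mural cluster 29 at -0.73.

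**Figure D4:**
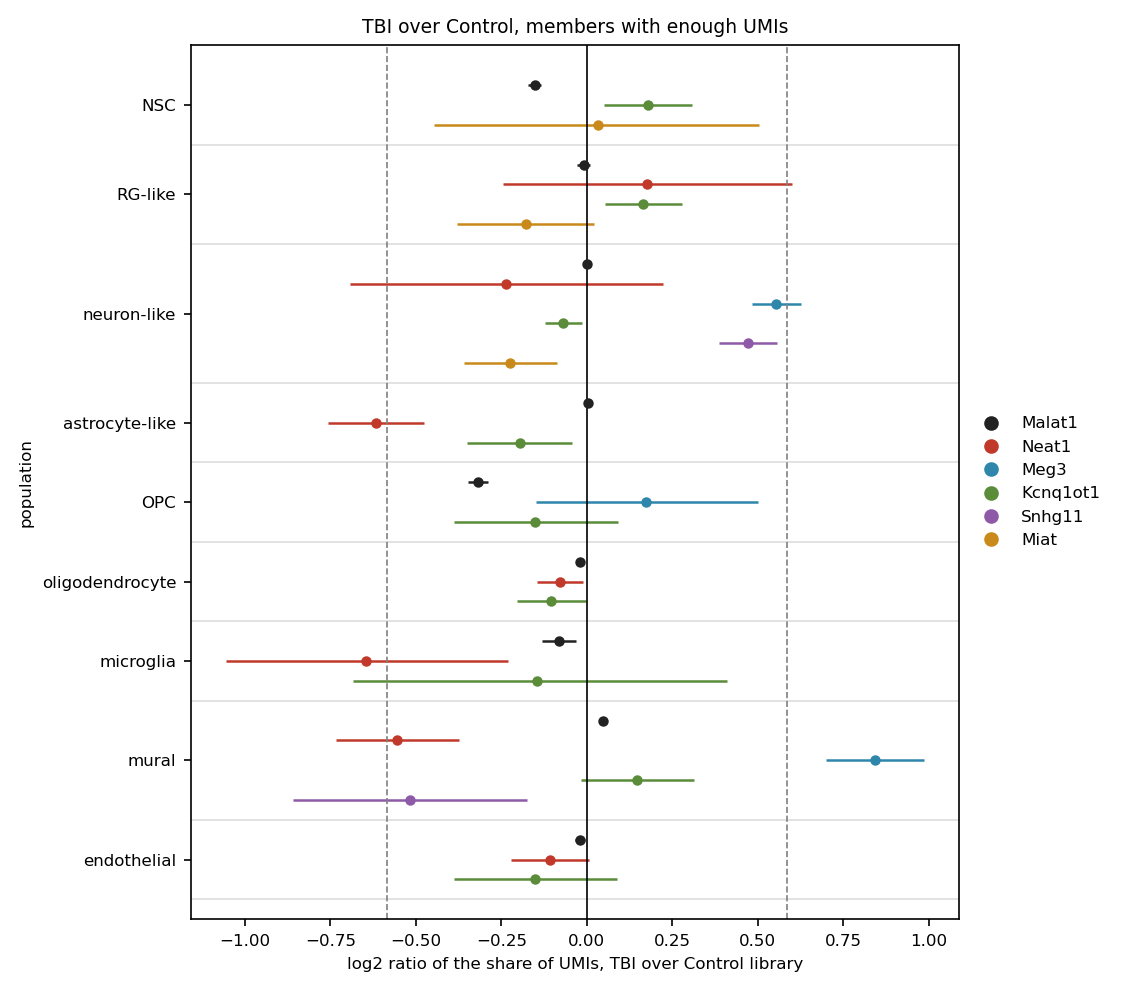
Log2 ratio of the TBI to the Control percent of UMIs for the 33 pairs with enough UMIs, coloured by RNA, with 95% counting intervals and dashed lines at 1.5-fold. Neat1 in astrocyte-like cells and in microglia lies below the lower line, and Meg3 in mural cells lies above the upper line.

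Neat1 was lower in the TBI library in astrocyte-like cells, with a log2 ratio of -0.62 (interval -0.76 to -0.48). In the astrocyte sub-population its share was 0.0600% in Control and 0.0396% in TBI, a log2 ratio of -0.60. In stem-like astroglia the ratio was -0.26 (interval -0.69 to 0.15). Among astrocyte-like clusters with enough UMIs it was -0.77 in cluster 4, -0.46 in cluster 5, -0.19 (interval -0.67 to 0.28) in cluster 31 and -0.10 (interval -0.47 to 0.26) in cluster 26. Cluster 5, the richest of them in Neat1 at 0.0963% and 0.0701%, held 25.5% of Control and 17.2% of TBI astrocyte-like cells. The value for all astrocyte-like cells came inside the limit at -0.55 when cells with over 10% mitochondrial UMIs were left out, at -0.56 without the cells under 0.5% Malat1, and at -0.48 when each cell was thinned to 2000 UMIs. In microglia the ratio was -0.65 (interval -1.06 to -0.23), from 84 UMIs in 38 Control cells and 127 UMIs in 89 TBI cells, and it came inside the limit at -0.42 by the mean over cells and at -0.41 (interval -0.81 to 0.0038) with each cell named by itself. Neat1 in mural cells was just inside the limit, at -0.56 (interval -0.74 to -0.38). It passed the limit at -0.62 without cells over 10% mitochondrial UMIs or without the cluster led by Kcnj8 and Hspa1a, and at -0.59 without mitochondrial UMIs in the denominator or without the cluster with Spp1, Dcn and Lum. Within the 3 mural clusters with enough UMIs the ratio was nearer 0, at -0.33, -0.08 and 0.00, the last in the Neat1-rich smooth muscle cluster, which held 18.1% of Control and 5.80% of TBI mural cells. In endothelial cells and oligodendrocytes the Neat1 share differed less, as given above.

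Meg3 was higher in the TBI library in mural cells, with 514 UMIs in 281 Control cells and 1674 UMIs in 707 TBI cells and a log2 ratio of 0.84 (interval 0.70 to 0.99). The makeup of the mural cells differed between the libraries. The cluster led by Kcnj8 and Hspa1a, with 0.0696% Meg3 in Control and 0.0958% in TBI, held 44 of 281 Control cells (15.7%) and 259 of 707 TBI cells (36.6%). The smooth muscle cluster, with 16 and 45 Meg3 UMIs, held 51 (18.1%) and 41 (5.80%). Single mural clusters were looked at after the values were seen and did not all go the same way. In the largest mural cluster the share was 0.0629% in Control and 0.0632% in TBI, a log2 ratio of 0.01 (interval -0.19 to 0.21). Mural cluster 29, with 18 Control and 83 TBI cells, had 0.115% and 0.0594%, a log2 ratio of -0.95 (interval -1.63 to -0.21), lower in TBI. Over all mural cells the ratio was 0.64 without the Kcnj8 cluster, 0.47 by the mean over cells and 0.44 in thinned cells, the last 2 inside the limit.

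Snhg11 in mural cells was inside the limit at a log2 ratio of -0.52 (interval -0.86 to -0.17). This value rested almost wholly on the cluster with Spp1, Dcn and Lum, of 12 Control and 19 TBI cells. In that cluster, which took the mural name by a narrow margin, the ratio was -0.56 (interval -0.90 to -0.21). Over all mural cells the ratio passed the limit at -0.67 without cells over 10% mitochondrial UMIs. It was -1.17 by the mean over cells and -0.86 in thinned cells, also past the limit. With each cell named by itself it turned to 0.69.

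Also inside the limit lay Meg3 and Snhg11 in neuron-like cells, with log2 ratios of 0.55 and 0.47, and both had the opposite sign once Reln neurons were set aside. Meg3 in neuron-like cells passed the limit, higher in TBI, when the libraries were clustered without integration and in thinned cells. Reln neurons made up 4.43% of Control and 6.47% of TBI neuron-like cells, with exact binomial intervals of 2.99 to 6.31 and 5.14 to 8.01. In the other neuron-like cells Meg3 was at 0.00487% in Control and 0.00249% in TBI, a log2 ratio of -0.97, and Snhg11 at 0.00291% and 0.00120%, a ratio of -1.28. These last values rest on few cells, since 10 Control cells held 97.8% of the Meg3 and 93.3% of the Snhg11 UMIs there. The cluster of all cells led by Reln held 33 Control and 77 TBI cells, but the Reln neurons set aside were 29 Control and 77 TBI cells. Its Meg3 share was 0.726% in Control and 1.03% in TBI. Since that cluster held more Control cells than were set aside, some of its Control cells stayed among the other neuron-like cells. Whether they account for the opposite sign was not tested, nor was which sub-population held them. Single clusters of neuron-like cells could go the other way. In neuron-like cluster 6, led by Sema5a, Meg3 had 15 UMIs in 121 Control cells and 98 UMIs in 197 TBI cells, a log2 ratio of 2.36 (interval 1.57 to 3.25). In the immature granule neuron sub-population, whose larger sub-cluster was also led by Sema5a, it was -1.71 (interval -2.06 to -1.37) for Meg3 and -1.85 for Snhg11. The direction for Meg3 thus depended on how the cells were divided. In immature granule neurons Miat stood lower in TBI, with a log2 ratio of -0.76 (interval -1.06 to -0.45). These ratios within neuron-like cells were chosen after their values were seen.

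Against the mitochondrial share, Malat1 was lower in the cells with more mitochondrial UMIs in 13 of 15 groups, a group being the cells of 1 population in 1 library with at least 60 cells. The third of cells with the highest mitochondrial share was set against the third with the lowest, and the log2 ratio had a median of -0.44 and ran from -0.89 to 0.27. In TBI astrocyte-like cells Malat1 went from 14.7% at low to 7.96% at high mitochondrial share, and in Control from 13.4% to 8.58%. In endothelial cells it went from 5.27% to 3.66% in Control and from 5.28% to 3.29% in TBI. Oligodendrocytes were the exception, at 7.43% and 8.94% in Control and 7.61% and 7.78% in TBI. Within single oligodendrocyte clusters, however, Malat1 was lower at high mitochondrial share in all 13 cluster groups, and over all clusters in 42 of 52. Mitochondrial UMIs are part of the denominator, and without them Malat1 was lower in 12 of 15 groups.

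The other RNAs varied more. Neat1 was lower at high mitochondrial share in 5 of 15 groups, with log2 ratios from -1.38 in TBI endothelial cells, where it went from 0.0997% to 0.0383%, to 1.74 in Control mural cells, where it went from 0.0161% to 0.0539%. Kcnq1ot1 was lower in 9 of 15 groups, Miat in 5 of 7, Snhg11 in 4 of 6 and Meg3 in 6 of 6. For Miat the interval lay below 0 in 1 of the 7 groups. Without mitochondrial UMIs in the denominator Miat was lower in 3 of 7 groups and Neat1 in 4 of 15. The counts of Kcnq1ot1, Snhg11 and Meg3 stayed the same. Within single clusters Kcnq1ot1 was lower in 40 of 47 cluster groups, Miat in 12 of 17, Meg3 in 6 of 9, Neat1 in 15 of 37 and Snhg11 in 1 of 4. Across cells of a group, Spearman's correlation of the Malat1 share with the mitochondrial share ran from -0.54 in 654 TBI endothelial cells to 0.28 in 571 Control oligodendrocytes, where both shares have the same total and the cells come from 1 library.

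Against depth Malat1 had no common direction over all cells, being lower in the third of cells with the most UMIs in 8 of 15 groups and higher in 7. Without the cells under 0.5% Malat1, a limit set after the values were seen, it was lower in 12 of 15. The cells left out were chosen by Malat1 itself and were shallower, so this step alone raises Malat1 in the shallow cells. The count of 12 is therefore no measure of a link with depth. In TBI neuron-like cells it went from 5.33% in the third with the fewest UMIs to 3.17% in the third with the most. In astrocyte-like cells it went the other way, from 2.90% to 14.0% in TBI and from 5.57% to 12.5% in Control, where the shallow cells include those under 0.5% Malat1. NSC went from 1.5% to 2.28% in Control and from 1.18% to 2.13% in TBI. Meg3 in neuron-like cells went from 0.102% to 0.0200% in Control and from 0.136% to 0.0233% in TBI, and Neat1 was higher in the deeper cells in 11 of 15 groups.

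**Figure D5:**
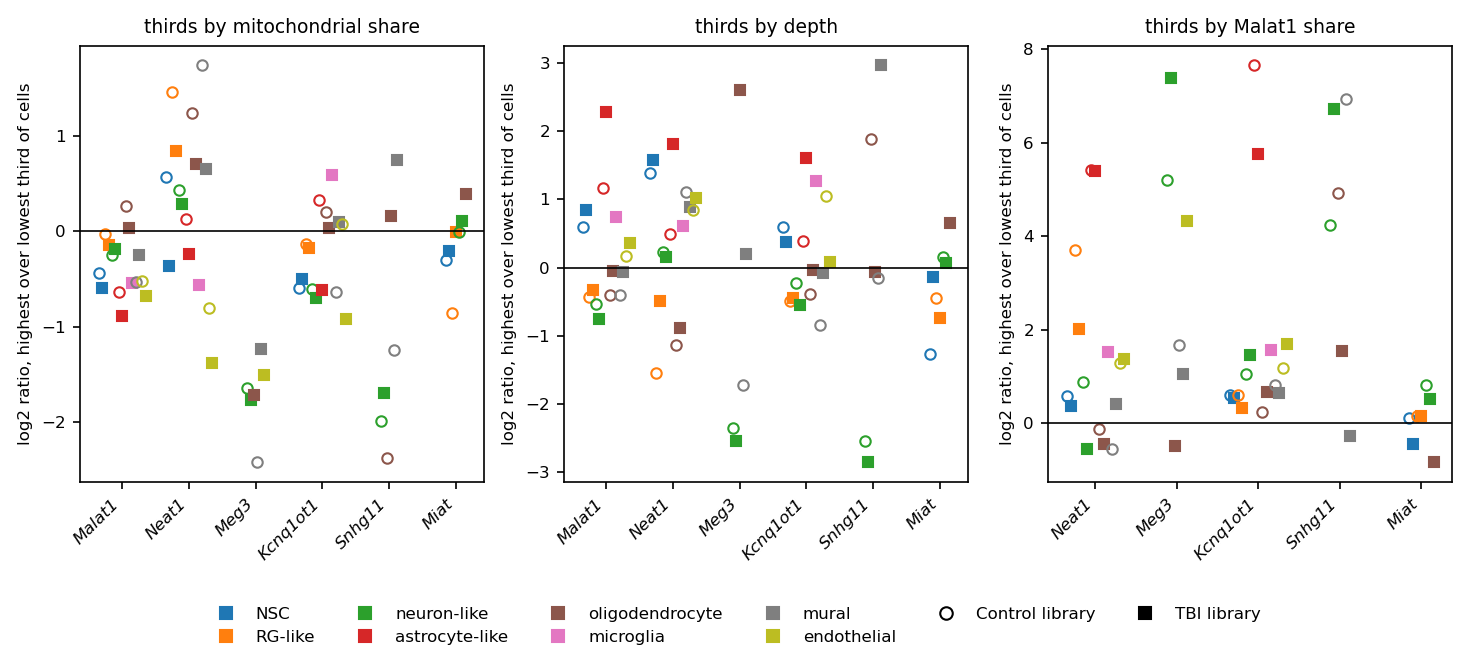
Log2 ratio of each RNA between the third of cells with the highest and the third with the lowest mitochondrial share, depth and Malat1 share (3 panels), for each population (colour) in Control (open circles) and TBI (filled squares). Malat1 lies below 0 in 13 of 15 groups for the mitochondrial share and on both sides for depth, and Kcnq1ot1 lies above 0 in 15 of 15 groups for the Malat1 share.

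In most groups the cells with more Malat1 also had more of the other RNAs. With Malat1 taken out of the denominator, the share was higher in the third of cells with the most Malat1 than in the third with the least in 41 of 49 pairs of an RNA and a group. The same count over all genes was not made, so it does not set these RNAs apart from other genes. For Kcnq1ot1 this held in 15 of 15 groups, with log2 ratios from 0.23 to 7.65. In NSC it was 0.60 in Control and 0.54 in TBI, in neuron-like cells 1.05 and 1.46, and in astrocyte-like cells 7.65 and 5.76, from 2 against 513 UMIs and 4 against 334 UMIs. Neat1 was higher in 11 of 15 groups, Meg3 and Snhg11 in 5 of 6 each, and Miat in 5 of 7. Without the Reln neurons, in which Malat1, Meg3 and Snhg11 were all high, the count was again 41 of 49. Within single clusters, 90 of 114 pairs were higher, Kcnq1ot1 in 40 of 47. Mitochondrial genes were lower in the cells rich in Malat1 in 13 of 15 groups and ribosomal protein genes, those starting Rpl or Rps, in 15 of 15.

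Other long noncoding RNAs from a list of 39 served as a comparison, of which 23 were measured and 19 had at least 100 UMIs. They were higher in the cells rich in Malat1 in 123 of 193 pairs, 93 of 130 for those that host no small nucleolar RNA and 30 of 63 for the hosts. Tug1, a chromatin-bound RNA, was higher in 14 of 15 groups, Ftx, a regulator of X inactivation, in 12 of 12, and Pantr1 in 1 of 12. Between TBI and Control, 3 of 77 pairs of these RNAs were past 1.5-fold higher and 5 past 1.5-fold lower. The share of all genes past that fold ran from 1.8% in neuron-like cells to 29.7% in OPC. These pairs were not split by population, so their count cannot be set against that share.

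Over the 18 profiles of 9 populations in 2 libraries, Meg3 and Snhg11 had the most alike patterns of the 6 RNAs, with a Pearson correlation of 0.94 in log2(CPM + 10), where CPM scales the UMIs of a profile to a fixed total. Outside neuron-like cells, OPC and mural cells both were near 0, at no more than 0.00118% for Meg3 and 0.000603% for Snhg11. The correlation therefore rests on those populations, and in mural cells the UMIs of both came from different clusters. Neat1 and Miat were opposite to each other at -0.87, and Malat1 and Neat1 stood at 0.54. Among 10138 genes with at least 500 UMIs, the closest to Malat1 was 4932438A13Rik at 0.94, among the 3 closest to Neat1 was Nr3c1, the glucocorticoid receptor, at 0.93, and the closest to Meg3 were Cygb and Sema5a at 0.97. Kcnq1ot1 was closest to Traf4 at 0.96, Snhg11 to Cygb at 0.96, and Miat to Dll3, an inhibitory Notch ligand of progenitors, at 0.98. These are descriptions over profiles that come in pairs from the same populations.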

How the data were processed

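The authors aligned the reads to GRCm38/mm10 with Cell Ranger 3.0.2 and deposited raw UMI counts per gene and cell barcode, 1 table for each condition, not normalized. The labels list 4 Control and 4 TBI animals, while the study's methods give other numbers of pooled animals, and no key from cells to animals was used. The condition of a table was taken from barcodes that the study lists, 356 of 356 Control and 320 of 320 TBI barcodes being found in their table.

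The filter asked for 200 genes per cell and a UMI total within 3 median absolute deviations (log scale). It passed 3049 of 3086 barcodes in Control, with 24629521 UMIs, and 5036 of 5081 in TBI, with 31503415. Seurat 5.3.0 in R 4.3.3 integrated the libraries by canonical correlation analysis (20 dimensions) and clustered the cells (20 principal components, resolution 3), after the study's settings, with the 6 RNAs left out of the clustering genes. Neuron-like and astrocyte-like cells were clustered again with 30 dimensions, 16 components and resolution 0.8. Clusters took names from fixed markers if at least 3 were detected, so population names are rebuilt. A cluster also stayed unnamed at a low UMI count with no own marker among its leading genes, or with more markers of another type there. Scrublet in scanpy 1.11.5 called 37 Control and 108 TBI doublets, which were left in.

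Sums of UMIs have exact Poisson intervals at 95%, and ratios have conditional binomial ones. The ratio step was run on simulated counts in which 200 genes of each population were changed 2-fold. It recovered from 78% of them in OPC to 96.5% in neuron-like cells. Of the unchanged genes, 0.331% in neuron-like cells to 1.82% in OPC passed the limit. The counts were drawn from a pooled profile of the population, with no differences between cells or libraries. The simulation therefore cannot judge ratios that rest on few cells or on a library difference. With 1 library in each condition no test was made. The genes named are the 7 listed RNAs, other noncoding RNAs from a list of 39, and for each RNA up to 3 genes with the highest correlation, of which 1 is not reported here. The members and lists were chosen with earlier results of these data known. Alternatives changed the cell filter, doublets, clustering, denominator, weighting of cells and limits. Thinning kept 2697 Control and 4295 TBI cells with 2000 UMIs and left out 352 and 741. Python 3.11.15, numpy 2.4.6, scipy 1.17.1 and matplotlib 3.10.9 were used.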

Additional observations from a re-analysis of the deposited data

How the results depend on the processing

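No paired analysis was possible because each condition is 1 pool of animals with no key from cells to animals, and for the same reason no animal could be left out. The number of pairs past 1.5-fold, 3 of 33, was 5 with cells over 10% mitochondrial UMIs left out, 8 of 39 with each cell named by itself, 0 at a fold limit of 2, 11 of 50 without the limit on low counts, and 5 with Reln neurons left out. The last alternative was added after the data were seen. The share of all genes past the limit was not computed for these alternatives, so their counts have no background beside them. Thinning to 2000 UMIs gave 3 of 28, none of them among the 3 pairs. Each of the 3 pairs kept its sign in the alternatives that gave it a value, but pairs inside the limit could change sign. Meg3 and Snhg11 in neuron-like cells did so without Reln neurons, Snhg11 in mural cells with each cell named by itself (from -0.52 to 0.69), Kcnq1ot1 in microglia by the mean over cells (from -0.15 to 0.70), and Meg3 in OPC without integration (from 0.17 to -0.49) and in thinned cells (to -0.38). The number of RNAs with the same highest population was 5 to 6. Groups with less Malat1 numbered 10 to 15 at high mitochondrial share and 7 to 12 at high depth. The 12 came from leaving out the cells under 0.5% Malat1, which selects on Malat1 itself. By share, the pairs higher at high Malat1 ran from 39 of 49 to 46 of 49, the latter by the mean over cells. The 39 came from leaving out cells over 10% mitochondrial UMIs or cells under 0.5% Malat1. Thinned cells gave 35 of 38, and naming each cell by itself gave 55 of 64. Of 555 recomputed log2 ratios, 473 stayed within the counting interval and 7 moved by over 1.5-fold. Of 1404 recomputed levels, 78 moved by over 1.5-fold. Both counts include alternatives that could not change a value, such as the fold limit of 2 and the limit on low counts for ratios. The ratios also include populations that a left-out cluster did not touch, and the levels include another division of the cells. The counts are therefore no measure of stability. OPC and microglia, with 27 and 38 Control cells, and RNAs with few UMIs set the limits, and with 1 library in each condition no value separates injury from library.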
